A study of Mus musculus with 18 samples.

Results

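The genes described here are 10 genes of bone morphogenetic protein (BMP) signalling and of the inhibitor of differentiation (ID) family: the ligands Bmp4 and Bmp7, the type I receptors Bmpr1a and Bmpr1b, the inhibitors Smad6 and Nog, and the factors Id1, Id2, Id3 and Id4. They were picked by gene name, as 10 of the 54838 genes in the count table, and all 10 passed the filter on low counts, Bmp4 only through 3 libraries taken at 72 h with or without TNF. RNA was sequenced from 18 mouse cultures in 6 conditions with 3 replicates each. Neurospheres (NSPs), which are floating clusters of dividing neural stem cells, were the starting point. They were taken from wild-type C57BL/6J embryos at embryonic day 14 and were grown with EGF at 20 ng/ml. The other cultures were differentiating towards astrocytes in medium with 10% serum for 24 h without TNF, 24 h with TNF, 72 h without TNF, 72 h with TNF, or 1 week without TNF, and TNF (tumor necrosis factor, an inflammatory cytokine) was given at 50 ng/ml. No library was made from cells treated with a BMP ligand or a BMP inhibitor, and the unsorted cultures hold every cell type that grew in them. According to the methods each isolation used a single brain, but the labels do not tie libraries to brains, so the p-values measure the spread between these cultures.

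BMP ligands are secreted proteins that bring type I and type II receptors together on the cell surface, and the active receptors phosphorylate SMAD proteins that enter the nucleus with SMAD4 and switch on target genes. The ID genes are among the best known of these targets. ID proteins carry a helix-loop-helix domain but cannot bind DNA, so they tie up basic helix-loop-helix (bHLH) partners such as the E proteins and hold back neuronal and oligodendrocyte programmes, and BMP signalling favours the astrocyte fate in neural stem cells of late gestation. The pathway limits itself: Smad6 is an inhibitory SMAD that blocks signalling inside the cell, and Nog encodes noggin, a secreted protein that binds BMP ligands and keeps them from their receptors.

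The sequences before the start sites of Id4 and Smad6 are shown because these genes had the most lasting rises over neurospheres. They come from RefSeq on GRCm38.p6 and cover the 250 bases before the start, read 5′ to 3′ on the strand of the gene. Capitals mark letters that SMAD proteins are known to bind: GGCGCC, or GTCT with its complement AGAC. The Id4 stretch lies at chr13:48260866-48261115 on the plus strand and the Smad6 stretch at chr9:64022060-64022309 on the minus strand, and no annotated GENCODE M21 exon lies in either.
Id4: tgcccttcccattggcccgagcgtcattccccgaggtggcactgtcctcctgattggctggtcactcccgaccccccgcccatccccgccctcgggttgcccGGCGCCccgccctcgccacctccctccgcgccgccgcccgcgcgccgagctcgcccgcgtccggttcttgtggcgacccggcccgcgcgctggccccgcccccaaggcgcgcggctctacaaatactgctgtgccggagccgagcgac
Smad6: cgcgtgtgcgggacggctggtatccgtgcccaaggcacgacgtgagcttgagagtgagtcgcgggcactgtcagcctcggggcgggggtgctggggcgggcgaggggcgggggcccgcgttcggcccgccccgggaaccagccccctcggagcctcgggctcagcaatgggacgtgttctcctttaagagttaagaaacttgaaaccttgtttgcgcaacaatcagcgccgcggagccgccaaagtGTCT
The Id4 stretch held GGCGCC once, beginning 148 bases before the start, and no GTCT on either strand. The Smad6 stretch held no GGCGCC and held GTCT once, as its last 4 bases. Both strands were searched, and no match overlapped another. Of 32851 RefSeq promoter stretches of this length, 9.59% held GGCGCC and 82.9% held GTCT on one strand or the other, so the second match is common. The letters CANNTG of an E-box, the element that bHLH proteins bind, were in 66.2% of all stretches and in neither of the 2 shown. Of the other members in the table, Id2 and Bmpr1a also held GGCGCC, while Id3, Bmp4 and Bmpr1b did not, and the stretches of Id2, Id3 and Bmpr1a and 1 of the 3 of Bmpr1b overlap annotated exons of the same gene. None of these is printed. A match is a run of letters and no evidence of binding. Id1, Bmp7 and Nog had no entry.

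The genes lie on 8 chromosomes of GRCm38. Id1 is at chr2:152736251-152737410, Id2 at chr12:25093799-25097140, Id3 at chr4:136143497-136145755 and Id4 at chr13:48261228-48266026. Bmp4 is at chr14:46383520-46390669, Bmp7 at chr2:172868012-172940321, Bmpr1a at chr14:34410734-34503341 and Bmpr1b at chr3:141837136-142169425. Smad6 is at chr9:63953076-64022059 and Nog at chr11:89300638-89302332. Values are read counts over the exons of each gene. Exons of genes on the opposite strand overlap 253 bases of Id4, 89 of Bmp4 and 290 of Bmpr1a, and the strand setting of the counting is not given in the sources used here, so reads there may belong to either gene.

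Total counts ran from 12509693 to 22549627 per library (median 16794798), and levels are given as CPM, the counts scaled to library size with TMM factors. Replicate 1 stood apart from replicates 2 and 3 in NSPs, at 24 h with TNF and at 72 h with TNF. The chi-square per degree of freedom between its counts and theirs was 46.1 to 62.7 in these conditions, against 4.08 in NSPs, 9.06 at 24 h with TNF and 12.47 at 72 h with TNF between replicates 2 and 3. Gfap, an intermediate filament gene used as an astrocyte marker, ran from 11.6 to 37.3 CPM in NSPs, from 864 to 949 CPM at 24 h, from 1855 to 3172 CPM at 72 h and from 52.7 to 81.6 CPM at 1 week. The other astrocyte markers did not all follow it: Kcnj10, a glial potassium channel, ran from 99.1 to 149 CPM in NSPs and from 384 to 817 CPM at 1 week. Against NSPs, calls among these 8 markers were 4 up and 1 down at 24 h, 3 and 2 at 72 h, and 1 and 4 at 1 week. Of 6 mural and fibroblast markers, Lum was at 0 in every library. The summed level of that list, nearly all of it the contractile gene Acta2, was 4.10 to 10.6 CPM in NSPs, 403 to 496 at 24 h, 197 to 294 at 72 h and 325 to 409 at 1 week. With TNF it was 96.1, 530 and 496 CPM in the 3 libraries at 24 h and 54, 188 and 204 at 72 h. The 6 endothelial markers summed to at most 7.61 CPM and the 6 microglial ones to at most 3.88 CPM in any library. In these bulk cultures, more RNA per cell and more cells of a type cannot be told apart.

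During the first day the 4 ID genes, the receptor Bmpr1a and the inhibitors Smad6 and Nog rose. The ligand Bmp7 fell. By 72 h Id1, Id2, Id3, Bmpr1a, Smad6 and Nog had fallen from their 24 h levels, and Id2, Id3 and Nog were no longer called against NSPs. At 1 week Id4 and Smad6 were still far above NSPs while Id3 had fallen below them. A gene is called where edgeR's quasi-likelihood test, fitted over all 18 libraries and adjusted by Benjamini-Hochberg over 20067 genes, gave an adjusted p under 0.05. At 24 h against NSPs, 7 of the 10 members were called higher and 1 lower, where 27.2% of all genes tested were higher and 25.5% lower. At 72 h against NSPs the counts were 5 higher, Bmp4 with its few counts among them, and 1 lower, against 28.1% and 27.2% of all genes, and at 1 week against NSPs 3 higher and 3 lower, against 29.6% and 29.1%. From 24 h to 72 h, 2 members, Bmp7 and Bmp4, were called higher and 6 lower, where 12.2% of all genes were higher and 12.6% lower. Bmp4 passed the filter only through libraries taken at 72 h with or without TNF, so its calls at 72 h are not read as a result. From 72 h to 1 week, 1 was higher and 2 were lower, against 2.68% and 3.96%. Comparisons with a condition in common share its libraries and are not independent.

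Id1, the ID gene most often used as a readout of BMP signalling, was at 15.2, 17.7 and 16.8 CPM in NSPs, 109, 139 and 129 CPM at 24 h, 38.1, 51.7 and 66.3 CPM at 72 h and 32.1, 26.4 and 30.8 CPM at 1 week. The 3 libraries at 24 h were the highest of these, and every library at 72 h or 1 week lay above every NSP library. Id1 rose 7.57-fold at 24 h (log2 fold change 2.92 ± 0.29 SE, edgeR adjusted p = 1.72e-07) and fell by 1.27 ± 0.27 on the log2 scale from 24 h to 72 h (adjusted p = 0.00165). At 1 week it was still higher than in NSPs (0.85 ± 0.27, edgeR adjusted p = 0.0130). From 72 h to 1 week its difference of -0.81 ± 0.27 missed the threshold (edgeR adjusted p = 0.0823).

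Id2, which in neural progenitors also restrains oligodendrocyte differentiation, was at 98.2, 109 and 101 CPM in NSPs, 226, 274 and 213 CPM at 24 h, 93.5, 122 and 173 CPM at 72 h and 93.6, 79.3 and 86.1 CPM at 1 week. Among the untreated cultures the 24 h libraries stood above all others, the 72 h libraries overlapped with NSPs and the 1 week libraries lay just below them. The change at 24 h was 1.21 ± 0.23 (edgeR adjusted p = 0.000259) and the fall from 24 h to 72 h was -0.88 ± 0.23 (adjusted p = 0.00779). Against NSPs, Id2 differed by 0.33 at 72 h (95% interval -0.14 to 0.80) and by -0.25 at 1 week (-0.73 to 0.22), both short of the threshold.

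Id3, a partner of Id1 in vessels and forebrain progenitors, was at 90.4, 153 and 145 CPM in NSPs, 334, 445 and 398 CPM at 24 h, 109, 148 and 171 CPM at 72 h and 24.8, 20.6 and 26.3 CPM at 1 week. Without TNF the 24 h libraries were highest, the 72 h libraries overlapped with NSPs and the 1 week libraries lay below all others. Id3 rose by 1.60 ± 0.27 at 24 h (edgeR adjusted p = 8.22e-05) and fell by 1.46 ± 0.27 from 24 h to 72 h (adjusted p = 0.000539) and by a further 2.58 ± 0.28 from 72 h to 1 week (adjusted p = 2.05e-05). It was the one ID gene called lower than in NSPs at 1 week (-2.43 ± 0.28, edgeR adjusted p = 6.60e-07).

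Id4, the family member that in the adult hippocampus keeps neural stem cells quiescent, was at 18.3, 43.9 and 41.5 CPM in NSPs, 205, 206 and 162 CPM at 24 h, 205, 276 and 320 CPM at 72 h and 222, 186 and 210 CPM at 1 week. No library after the start of differentiation without TNF came near the NSP libraries, and the later conditions overlapped with 24 h. Id4 rose by 2.47 ± 0.27 at 24 h (edgeR adjusted p = 5.85e-07) and was higher than in NSPs by 2.95 ± 0.27 at 72 h (adjusted p = 3.82e-08) and by 2.57 ± 0.27 at 1 week (adjusted p = 1.64e-07). Neither step after 24 h passed the test (0.48 ± 0.25, adjusted p = 0.177, and -0.38 ± 0.25, adjusted p = 0.464). NSP replicate 1, which stands apart, was the lowest Id4 library, and without it the rise at 24 h was 2.16 (edgeR adjusted p = 8.53e-07).

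**Figure D1:**
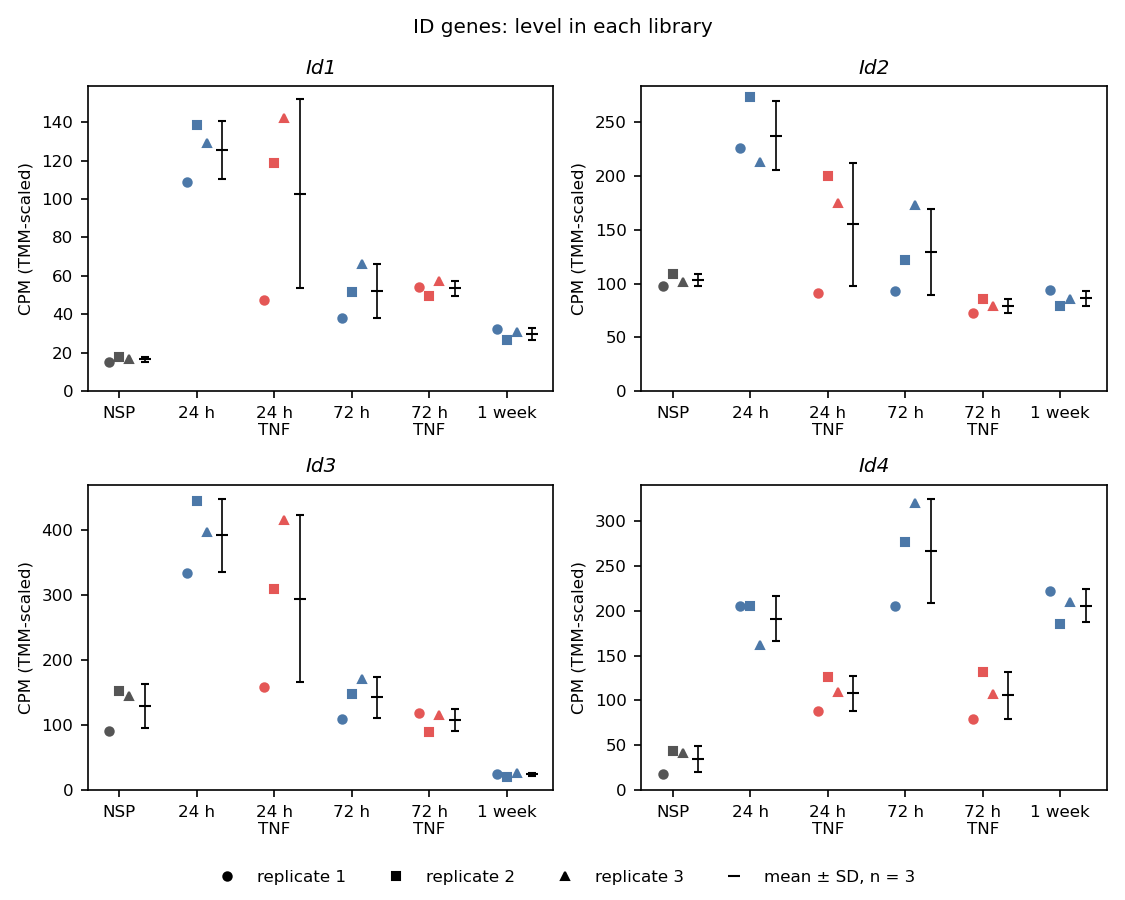
Level of Id1, Id2, Id3 and Id4 in each of the 18 libraries, in TMM-scaled CPM on linear axes from 0, by condition (grey NSPs, blue without TNF, red with TNF), with symbols for replicate numbers and black bars for the mean ± SD of 3 libraries. Among untreated libraries Id1, Id2 and Id3 stand highest at 24 h, Id3 ends at 20.6 to 26.3 CPM at 1 week, and Id4 stays at 162 CPM or more in every untreated library after NSPs.

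The 4 ID genes thus did not keep their proportions. Levels of different genes were compared as CPM per kb of exon. The summed ID level was 138 ± 25.5 CPM per kb (SD, n = 3) in NSPs, rose to 474 ± 54.8 after 24 h, and then stood at 247 ± 60.7 after 72 h and 128 ± 11.6 after 1 week, so NSPs and 1 week cultures had overlapping sums. Their makeup was different. Id3 made up 51.9% ± 4.7 of the sum in NSPs (SD, n = 3), 46.1% ± 2.2 at 24 h, 32.4% ± 1.1 at 72 h and 10.4% ± 0.68 at 1 week. Id4 made up 6.32% ± 1.7, 10.5% ± 1.8, 28.2% ± 0.98 and 41.8% ± 0.19 in the same order. The shares of these 2 genes did not overlap between NSPs and 72 h or 1 week, nor between 72 h and 1 week. Id2 held 31.3% ± 5.0 in NSPs and 27.7% ± 0.70 at 1 week, and Id1 held 10.5% ± 1.3 and 20.1% ± 0.24. These shares are descriptions and carry no test.

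**Figure D2:**
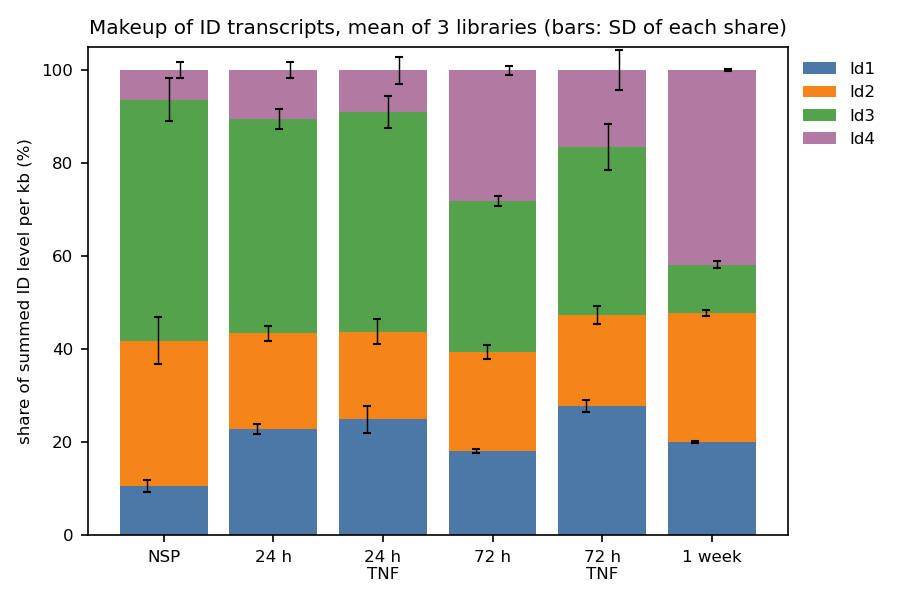
Share of Id1, Id2, Id3 and Id4 in the summed ID level per kb of exon, in percent, as stacked bars of the mean of 3 libraries in each condition, with black bars for the SD of each share. The Id3 share shrinks from 51.9% in NSPs to 10.4% at 1 week and the Id4 share grows from 6.32% to 41.8%, while at 72 h with TNF Id4 holds 16.6%.

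Of the ligands, Bmp7, which drives BMP signalling in kidney, eye and brain development, was at 46.3, 37.9 and 36.7 CPM in NSPs, 2.95, 4.53 and 3.67 CPM at 24 h, 7.11, 5.95 and 6.16 CPM at 72 h and 16.4, 14.7 and 14.6 CPM at 1 week. The 4 untreated conditions did not overlap: NSPs were highest, 24 h lowest, and the level had climbed part of the way back by 1 week. Bmp7 fell by 3.43 ± 0.22 at 24 h (edgeR adjusted p = 1.09e-09), rose by 0.77 ± 0.22 from 24 h to 72 h (adjusted p = 0.0141) and by 1.25 ± 0.20 from 72 h to 1 week (adjusted p = 0.000804). It remained lower than in NSPs at 1 week (-1.40 ± 0.19, edgeR adjusted p = 6.41e-06). Without 24 h replicate 1 the step from 24 h to 72 h was 0.65 and lost its call (edgeR adjusted p = 0.0696).

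Bmp4, the ligand most used to turn neural stem cells into astrocytes, was barely detected. Its raw counts were 0, 1 and 0 in NSPs, 1, 0 and 0 at 24 h, 3, 3 and 15 at 72 h and 4, 2 and 2 at 1 week. It passed the filter only through 72 h replicate 3 and replicates 2 and 3 at 72 h with TNF, the libraries where it was highest. Its calls at 72 h against NSPs and against 24 h were lost without 72 h replicate 3 (edgeR adjusted p = 0.0711 and 0.183), and nothing is read from them. No fold is given for counts this low.

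Of the type I receptors, Bmpr1a had the higher level per kb of exon in NSPs (38.1 ± 4.1 CPM per kb against 14 ± 4.1 for Bmpr1b, SD, n = 3). Its CPM were 272, 227 and 227 CPM in NSPs, 712, 720 and 650 CPM at 24 h, 294, 329 and 378 CPM at 72 h and 247, 232 and 257 CPM at 1 week. Among the untreated cultures the 24 h libraries stood alone at the top, and 1 week overlapped with NSPs. Bmpr1a rose by 1.52 ± 0.17 at 24 h (edgeR adjusted p = 1.11e-06) and fell by 1.06 ± 0.17 from 24 h to 72 h (adjusted p = 0.000172). At 72 h it was called higher than in NSPs by 0.46 ± 0.17 (edgeR adjusted p = 0.0275), a call lost without NSP replicate 2 or 3 (0.0847 and 0.0857) or 72 h replicate 2 or 3 (0.0533 and 0.110). At 1 week it differed from NSPs by 0.02 (95% interval -0.34 to 0.37).

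Bmpr1b, a type I receptor that binds the same family of ligands, was at 55.3, 97.0 and 98.0 CPM in NSPs, 84.4, 82.8 and 75.9 CPM at 24 h, 76.4, 95.2 and 89.9 CPM at 72 h and 46.8, 41.2 and 54.2 CPM at 1 week. NSP replicate 1 lay far below the other NSP libraries and just above the 1 week libraries, and the 24 h and 72 h libraries lay between the extremes of NSPs. The difference at 24 h was -0.04 (95% interval -0.49 to 0.40), where the other receptor Bmpr1a had risen. At 1 week Bmpr1b was lower than in NSPs (-0.82 ± 0.21, edgeR adjusted p = 0.00303) and than at 72 h (-0.88 ± 0.21, adjusted p = 0.0164). The second of these calls was lost without 1 week replicate 1 or 2 or 72 h replicate 2 or 3 (edgeR adjusted p = 0.0654, 0.0861, 0.0799 and 0.0537).

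Smad6, the inhibitory SMAD, was at 0.698, 1.37 and 1.93 CPM in NSPs, 29.0, 30.5 and 32.3 CPM at 24 h, 12, 16 and 14.1 CPM at 72 h and 14.7, 11.9 and 15.1 CPM at 1 week. All untreated differentiating cultures lay above all NSPs, those at 24 h by the widest margin. Smad6 rose 22.6-fold at 24 h (log2 fold change 4.5 ± 0.43, edgeR adjusted p = 1.21e-07), and was still higher than in NSPs by 3.37 ± 0.42 at 72 h (adjusted p = 2.06e-06) and 3.36 ± 0.42 at 1 week (adjusted p = 1.88e-06). It fell by 1.12 ± 0.35 from 24 h to 72 h (edgeR adjusted p = 0.0228). That fall missed the threshold when any of the 3 libraries at 24 h (0.0501, 0.0523 and 0.0661), or replicate 1 or 3 at 72 h (0.0680 and 0.0662), was left out.

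Nog, which encodes the extracellular inhibitor noggin, was at 0.762, 1.26 and 1.88 CPM in NSPs, 23.0, 25.8 and 26.0 CPM at 24 h, 1.97, 2.33 and 3.14 CPM at 72 h and 0.442, 1.15 and 1.20 CPM at 1 week. Without TNF its rise was a single high point at 24 h, and at 1 week it overlapped with NSPs. Nog rose 18.9-fold at 24 h (log2 fold change 4.24 ± 0.62, edgeR adjusted p = 1.90e-05) and fell by 3.31 ± 0.58 from 24 h to 72 h (adjusted p = 0.000351). Against NSPs it differed by 0.93 at 72 h (95% interval -0.43 to 2.29) and by -0.54 at 1 week (-2.07 to 0.98). The difference at 72 h was called without a filter on low counts (edgeR adjusted p = 0.00973) and without 24 h TNF replicate 1 (0.0319), against 0.236 with the filter and all libraries.

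**Figure D3:**
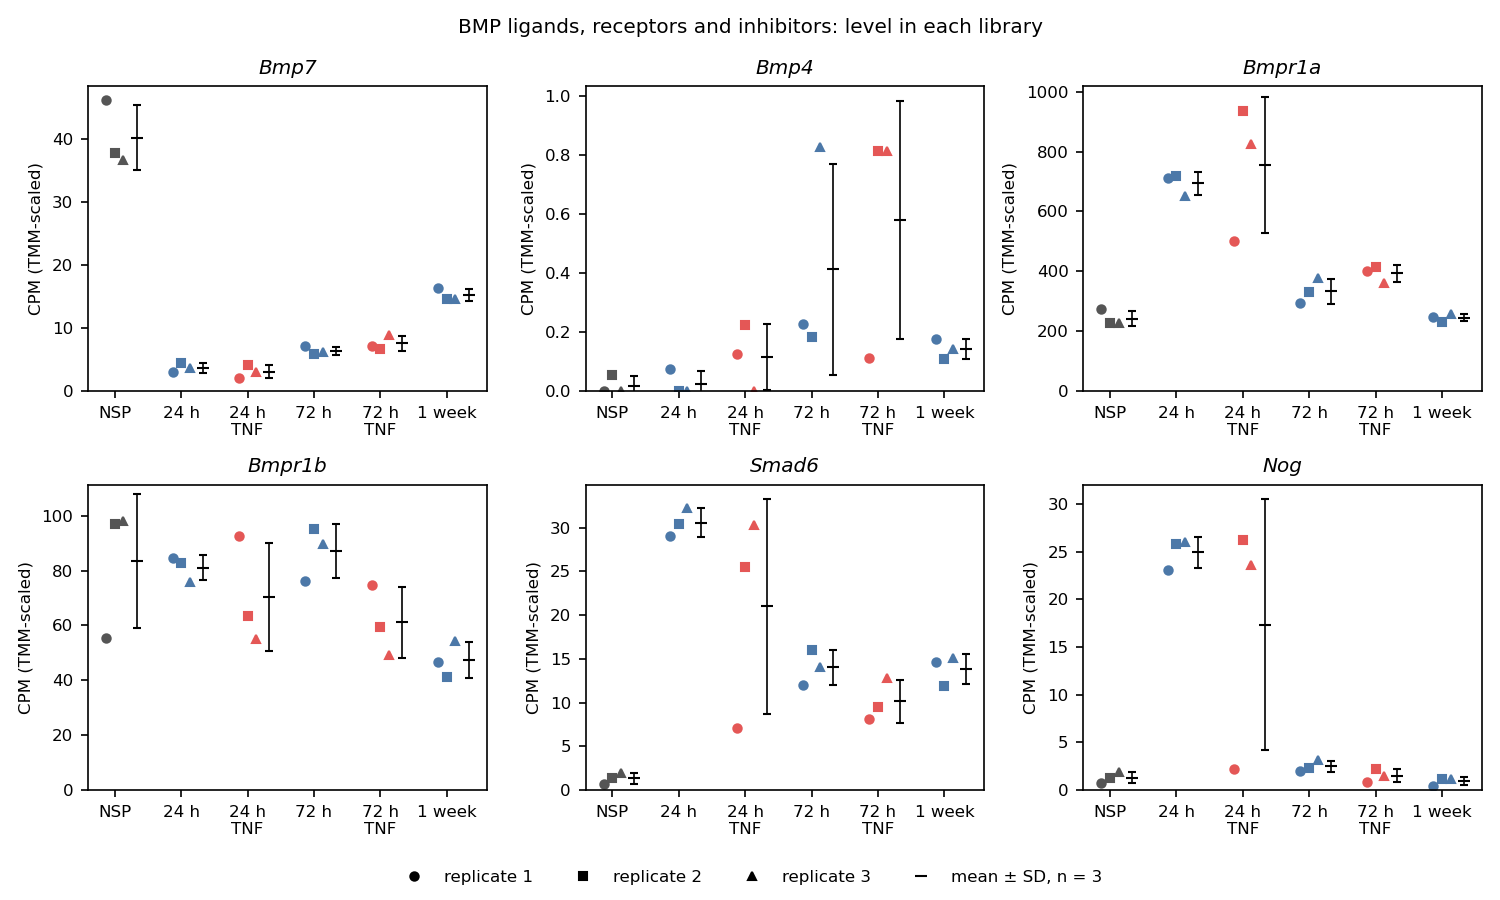
Level of Bmp7, Bmp4, Bmpr1a, Bmpr1b, Smad6 and Nog in each of the 18 libraries, in TMM-scaled CPM on linear axes from 0 that differ between panels, by condition (grey NSPs, blue without TNF, red with TNF), with symbols for replicate numbers and black bars for the mean ± SD of 3 libraries. Bmp7 is highest in NSPs, Nog and Smad6 are highest at 24 h among the untreated libraries, and replicate 1 at 24 h with TNF (circle) has Nog at 2.20 CPM where its 2 companions have 26.2 and 23.6.

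Per kb of exon, Id3 led the 10 genes in NSPs (72.1 ± 18.9 CPM per kb, SD, n = 3) and at 24 h (219 ± 31.3), without overlap with the next gene. At 72 h Id3 (79.8 ± 17.5) and Id4 (69.4 ± 15.1) overlapped, as did Id4 and Id2 (53.1 ± 16.5), Id2 and Bmpr1a (52.5 ± 6.6), and Bmpr1a and Id1 (44.9 ± 12.1). At 1 week Id4 led (53.5 ± 4.8), above Bmpr1a (38.6 ± 2.0), which overlapped with Id2 (35.4 ± 2.9), and Id3 (13.4 ± 1.7) lay below all of these and below Id1 (25.7 ± 2.6). Nog passed from 0.767 ± 0.33 CPM per kb in NSPs to 14.7 ± 0.97 at 24 h, where it overlapped with Bmpr1b (13.6 ± 0.75). Bmp4 was last in all 6 conditions.

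TNF was compared with no TNF at the same time. Its clearest association among the 10 genes was a lower level of Id4, called at 72 h. At 24 h no member was called in either direction, where 2.18% of all genes tested were higher and 1.32% lower. Of the 10, Id2 and Id4 had an unadjusted p under 0.05 at 24 h (0.0138 and 0.00415), and DESeq2 called Id4 alone (adjusted p = 0.0391). At 72 h, 0 members were called higher and 1 lower, against 4.35% and 5.21% of all genes. Id2, Id4 and Bmpr1b had an unadjusted p under 0.05 there.

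Id4 was at 205, 206 and 162 CPM at 24 h without TNF and at 88.1, 127 and 109 CPM with it. At 72 h it was at 205, 276 and 320 CPM without and 79.2, 131 and 107 CPM with TNF. The groups did not overlap at either time. Id4 was lower with TNF by 1.34 ± 0.25 on the log2 scale at 72 h (0.40-fold, edgeR adjusted p = 0.00188), a call kept under all 26 alternatives, with -1.16 (adjusted p = 0.0143) without 72 h TNF replicate 1. At 24 h its difference of -0.82 ± 0.25 missed the threshold (edgeR adjusted p = 0.0875, from 8.03e-06 to 0.267 over the alternatives). It was -0.72 (adjusted p = 0.267) without 24 h TNF replicate 1. The test of the difference between the effects at 72 h and 24 h gave -0.51 for Id4 (95% interval -1.26 to 0.23, edgeR adjusted p = 0.658). Of 8 astrocyte markers, 2 were called lower with TNF at 72 h: Gfap was at 1855 to 3172 CPM without and 217 to 1022 CPM with TNF, and S100b, a calcium-binding protein of glia, at 53.9 to 90.1 and 20.3 to 29.2 CPM. The summed level of the 8 was 5759 to 7873 CPM without and 3505 to 4902 CPM with TNF. Oligodendrocyte-lineage markers summed to 370 to 507 CPM without and 199 to 254 CPM with TNF, again without overlap. Nearly all of this was Cnp, at 362 to 499 CPM without and 192 to 248 CPM with TNF. Endothelial markers summed to 6.28 to 7.61 and 3.66 to 3.82 CPM. That fall was in Kdr (4.84 to 6.32 and 0.282 to 1.75 CPM). Pecam1, Tek and Flt1 were each higher with TNF, at most at 1.92 CPM, and the median log2 fold change on the endothelial list was 0.996. On the neuron, oligodendrocyte and endothelial lists 1 marker each was called lower and 0 higher. The part of these markers in the Id4 result was not tested. Id4 with TNF was still above every NSP library, the highest of which held 43.9 CPM.

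Id2 was at 90.9, 200 and 175 CPM at 24 h with TNF and at 72.3, 85.4 and 79.5 CPM at 72 h with TNF. Each of these was below every untreated library of its time. The differences of -0.61 ± 0.23 at 24 h (edgeR adjusted p = 0.180) and -0.71 ± 0.23 at 72 h (adjusted p = 0.0554, from 0.000227 to 0.344 over the alternatives, 6 of 26 under 0.05) were not called. Id1 was at 47.6, 119 and 142 CPM at 24 h with TNF and 54.4, 49.3 and 57.1 CPM at 72 h with TNF, overlapping with the untreated cultures at both times. Its difference at 72 h was 0.04 (95% interval -0.51 to 0.59). Id3, at 159, 309 and 416 CPM and at 119, 88.7 and 116 CPM with TNF, differed by -0.41 (-0.96 to 0.14) at 24 h and by -0.40 (-0.96 to 0.15) at 72 h. Without 24 h TNF replicate 1 the differences at 24 h were -0.36 for Id2 (edgeR adjusted p = 0.456) and -0.13 for Id3 (adjusted p = 0.888).

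Smad6 was at 7.12, 25.5 and 30.4 CPM at 24 h with TNF and at 8.11, 9.46 and 12.8 CPM at 72 h with TNF, and Nog at 2.20, 26.2 and 23.6 CPM and at 0.845, 2.21 and 1.5 CPM. At 24 h, replicate 1 of the TNF cultures was far below the other pair for both genes, and it was also the lowest of the 3 for Id1, Id2, Id3, Id4, Bmp7 and Bmpr1a and for Acta2 (90.3 CPM), and the highest for Gfap (1871 CPM). The part of this library's composition in the result was not tested. The TNF differences at 24 h were -0.54 for Smad6 and -0.53 for Nog with all libraries, and -0.15 (edgeR adjusted p = 0.877) and -0.02 (adjusted p = 0.990) without it. At 72 h they were -0.47 (95% interval -1.21 to 0.27) and -0.72 (-2.06 to 0.62).

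Bmpr1a was at 502, 937 and 825 CPM at 24 h with TNF and at 402, 416 and 362 CPM at 72 h with TNF, and Bmpr1b at 92.7, 63.3 and 55.1 CPM and at 74.8, 59.6 and 49.2 CPM. Neither receptor was called, and all 3 Bmpr1b libraries at 72 h with TNF lay below the untreated ones (-0.51 ± 0.21, edgeR adjusted p = 0.142). Bmp7 was at 2.08, 4.18 and 3.01 CPM and at 7.16, 6.62 and 8.95 CPM with TNF, with differences of -0.29 (95% interval -0.77 to 0.20) at 24 h, or -0.09 without replicate 1 of the TNF cultures, and 0.24 (-0.19 to 0.68) at 72 h. Bmp4 had 2, 3 and 0 counts at 24 h with TNF and 2, 14 and 13 at 72 h with TNF, too few for a comparison.

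**Figure D4:**
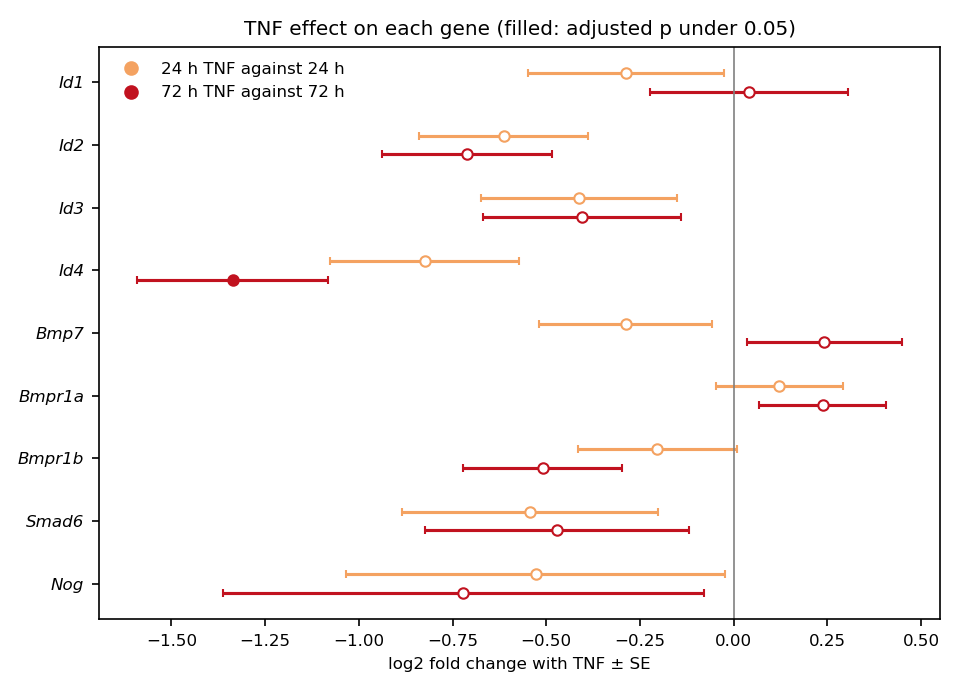
Log2 fold change with TNF against no TNF for 9 of the genes, Bmp4 left out for its low counts, at 24 h (orange) and 72 h (red), with bars for the SE from edgeR; filled points have an adjusted p under 0.05. Only the point of Id4 at 72 h, at -1.34, is filled.

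From 24 h to 72 h in the presence of TNF, 1 member was called higher and 5 lower, where 5.38% of all genes tested were higher and 7.93% lower. Bmp7 was higher (1.30 ± 0.22, edgeR adjusted p = 0.000764). Id3 (-1.45 ± 0.27, adjusted p = 0.00156), Nog (-3.51 ± 0.60, adjusted p = 0.000910), Bmpr1a (-0.94 ± 0.17, adjusted p = 0.00136), Id2 (-0.97 ± 0.23, adjusted p = 0.00815) and Id1 (-0.94 ± 0.26, adjusted p = 0.0243) were lower by edgeR. The Id1 call was lost without 24 h TNF replicate 2 or 3 (0.122 and 0.171) or any 1 of the libraries at 72 h with TNF (0.0553, 0.0924 and 0.0594), and the Id2 call without 24 h TNF replicate 2 (0.0724). With only the groups compared in the fit, the calls of Bmpr1a (0.0527), Id2 (0.0724) and Id1 (0.146) were all lost. In this comparison libraries of the same number deviated together, and Smad6, not called without the replicate number as a block (-1.05 ± 0.35, adjusted p = 0.0542), was called with it (-0.97, adjusted p = 0.0468). Without 24 h TNF replicate 1 Smad6 fell by 1.43 on the log2 scale (edgeR adjusted p = 0.000257). Over the 26 alternatives its change ran from -1.43 to -0.68. The adjusted p by edgeR or DESeq2 ran from 2.91e-05 to 0.303, and 5 of 26 were under 0.05. For the difference between the TNF effects at 72 h and at 24 h, 0 members were called, where 0.135% of all genes were higher and 0.324% lower. No member had an unadjusted p under 0.05 there, the lowest being 0.104 for Bmp7, and DESeq2 called none.

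The rest of the pathway was described with 6 lists of 72 genes, of which 51 were tested. At 24 h against NSPs, 17 of the 51 were called higher and 15 lower, shares near the 27.2% and 25.5% of all genes tested. The counts on the single lists at 24 h are to be read against these same shares. Among 6 ligands tested, from a list of BMP and growth differentiation factor (GDF) genes, 2 were higher and 2 lower. Bmp6 rose from 0.592 ± 0.27 to 4.59 ± 0.18 CPM (SD, n = 3), while Bmp3 fell from 13 ± 9.1 to 0.332 ± 0.14 CPM and Gdf6 from 2.88 ± 1.5 to 1.12 ± 0.31 CPM. Bmp6 went on to 18.1 ± 1.9 CPM at 72 h and 49.3 ± 2.8 CPM at 1 week. Of 8 receptors and co-receptors, 4 were higher and 0 lower. Bmpr2, the type II receptor that partners Bmpr1a and Bmpr1b, rose by 1.34 ± 0.17 (edgeR adjusted p = 5.30e-06), the type I receptor Acvr1 by 0.86 ± 0.22 (adjusted p = 0.00355) and the co-receptor Neo1 by 0.57 ± 0.12 (adjusted p = 0.000678).

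Of 11 extracellular inhibitors and modulators tested, 4 were higher and 2 lower at 24 h, where 27.2% and 25.5% of all genes were. The BMP antagonist Nbl1 rose by 2.51 ± 0.21 and Fst (follistatin, which binds activins and some BMPs) by 1.96 ± 0.20, and Chrdl1 (chordin-like, another antagonist) fell by 1.46 ± 0.14 on the log2 scale. Of 13 SMADs and intracellular regulators, 4 were higher and 3 lower, shares near those of all genes. Those with the largest changes were Smad9, a receptor-regulated SMAD (3.75 ± 0.20, edgeR adjusted p = 1.87e-10), the second inhibitory SMAD Smad7 (1.98 ± 0.28, adjusted p = 1.62e-05) and the pseudoreceptor Bambi (1.88 ± 0.30, adjusted p = 5.60e-05). Of 6 other BMP target genes 3 were tested, and these 3 were higher, with Atoh8 at 1.73 ± 0.72 CPM in NSPs and 54.2 ± 5.2 CPM at 24 h, Msx1 at 0.399 ± 0.24 and 1.55 ± 0.43 CPM, and Hey1 at 56.9 ± 6.2 and 112 ± 13.1 CPM.

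The helix-loop-helix genes whose products pair with ID proteins or belong to the families they restrain went the other way. Of 10 tested, 8 had fallen at 24 h and 0 had risen, and against NSPs all 10 had fallen by 72 h and also at 1 week. Of all genes tested, 25.5%, 27.2% and 29.1% were called lower in these comparisons. The median log2 fold change of the list was -1.34 at 24 h, -2.68 at 72 h and -2.56 at 1 week, beside 0.06, 0.05 and 0.06 over all genes tested. Hes5, a Notch effector of neural stem cells, fell by 3.23 ± 0.50 at 24 h, the oligodendrocyte factor Olig2 by 2.23 ± 0.19 and Hes1 by 1.63 ± 0.31 on the log2 scale. Olig2 was at 415 ± 25.3 CPM in NSPs, 88.6 ± 7.6 CPM at 24 h and 20.2 ± 1.6 CPM at 72 h. The list holds lineage and Notch genes as well as direct partners. Markers of other cell states moved with it. Of 7 neural stem cell and proliferation markers, 6 were called lower at 24 h against NSPs, 4 at 72 h, where 1 (Prom1) was higher, and 5 at 1 week, and their summed level was 3557 to 5026 CPM in NSPs and 1405 to 1509 CPM at 24 h, with Mki67 at 457 to 493 and 37.6 to 42.9 CPM. Of 5 neuron markers tested, 1 was lower and 1 higher at 24 h and 4 were lower at 72 h and at 1 week. Of 5 oligodendrocyte markers tested 2, 3 and 4 were lower and 0, 1 and 1 higher at 24 h, 72 h and 1 week, although the summed oligodendrocyte level was higher at 72 h (370 to 507 CPM) than in NSPs (77.3 to 150 CPM). The higher sum was due to Cnp, at 362 to 499 CPM at 72 h and 63.15 to 111 CPM in NSPs. NSP replicate 1 had a lower summed level of oligodendrocyte markers (77.3 CPM) than the other pair (150 and 147 CPM). The part of lineage composition in these counts was not tested.

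**Figure D5:**
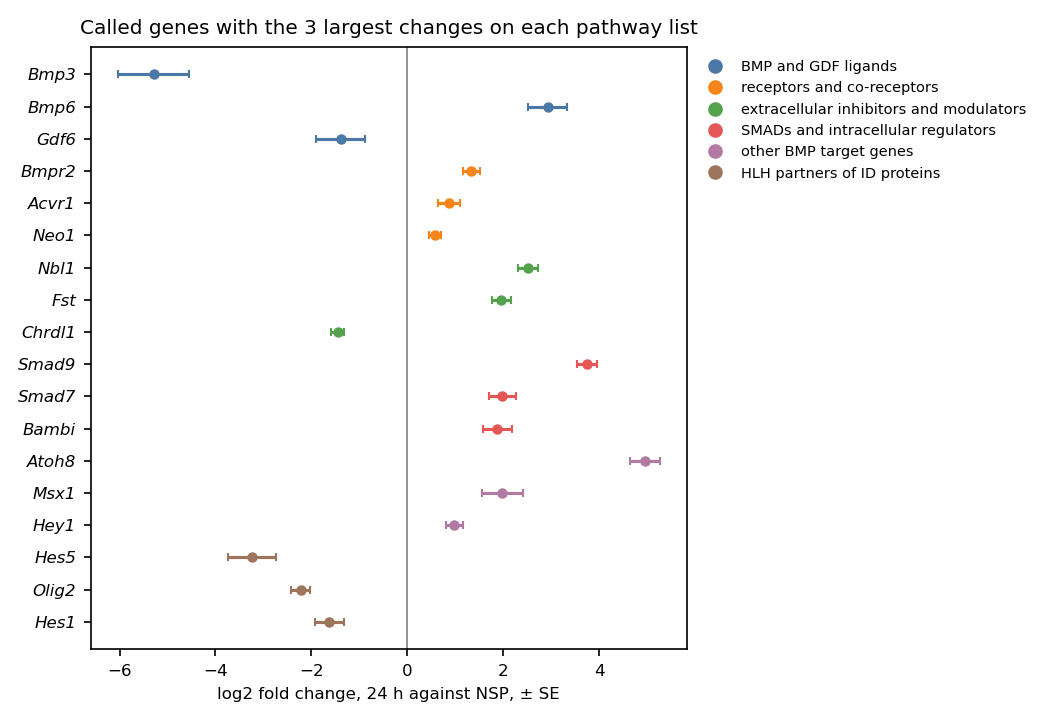
Log2 fold change at 24 h against NSPs for the 3 called genes with the largest change on each of the 6 pathway lists, with bars for the SE from edgeR and colours for the lists. Atoh8, at 4.95, is farthest to the right and Bmp3, at -5.29, farthest to the left, and the 3 helix-loop-helix genes Hes5, Olig2 and Hes1 are all left of 0.

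From 24 h to 72 h without TNF, 9 of the 51 pathway genes were called higher and 18 lower, beside 12.2% and 12.6% of all genes tested. The antagonist Chrdl1, which had fallen on the first day, was at 8.19 ± 0.56 CPM at 24 h and 88.9 ± 12.7 CPM at 72 h (3.44 ± 0.15, edgeR adjusted p = 8.48e-11), while Nog fell over the same step. Sostdc1, a further secreted BMP antagonist, rose by 2.91 ± 0.38 and Bmper, a modulator that binds BMPs, fell by 1.5 ± 0.25 on the log2 scale. On the list of BMP and GDF ligands, Bmp6 (1.98 ± 0.31), Gdf6 (1.56 ± 0.51) and Gdf11 (0.33 ± 0.11) rose. Bmpr2 fell with Bmpr1a (-1.12 ± 0.17, edgeR adjusted p = 0.000111), and the co-receptor Rgmb rose (0.58 ± 0.12). Smad7 (-1.31 ± 0.28), Skil (-1.04 ± 0.19) and Smad9 (-0.60 ± 0.17) were lower, as was the target Msx1 (-1.81 ± 0.42). Of the helix-loop-helix list, 8 of 10 were lower, Hes5 (-4.33 ± 0.71), Olig1 (-2.38 ± 0.37) and Neurog2 (-2.25 ± 0.51) by the most.

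With TNF at 24 h, 2 of the 51 pathway genes were called higher and 2 lower, beside 2.18% and 1.32% of all genes tested. Chrdl1 (0.87 ± 0.15, edgeR adjusted p = 0.00158) and Fst (0.86 ± 0.18, adjusted p = 0.00914) were higher. Gdf11 (-0.61 ± 0.11, edgeR adjusted p = 0.00224) and Smad9 (-0.72 ± 0.17, adjusted p = 0.0258) were lower. With TNF at 72 h, 3 were higher and 11 lower, beside 4.35% and 5.21%. Fst was at 6.45 ± 1.0 CPM without and 20.0 ± 3.0 CPM with TNF (1.63 ± 0.19, edgeR adjusted p = 1.49e-05), Bmper at 4.22 ± 0.29 and 12.4 ± 4.5 CPM and Olig2 at 20.2 ± 1.6 and 37.1 ± 8.8 CPM. The lower ones included Gdf6 (-2.31 ± 0.53), Gdf11 (-0.97 ± 0.11), Neo1 (-0.46 ± 0.12), Sostdc1 (-1.41 ± 0.33), Smad9 (-0.77 ± 0.18), Hey1 (-1.11 ± 0.18) and Hes1 (-1.44 ± 0.35). Of the 3 other BMP targets tested, 2 were called lower at 72 h with TNF and 0 higher, with Hey1 at 121 ± 22.7 CPM without and 56.2 ± 3.8 CPM with TNF.

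From 24 h to 72 h with TNF, 4 of the 51 pathway genes were higher and 15 lower, beside 5.38% and 7.93% of all genes tested. Bmp6 (1.26 ± 0.31), Chrdl1 (1.63 ± 0.14), Crim1 (0.90 ± 0.16) and Rgmb (0.43 ± 0.12) were higher. Bmpr2 (-0.80 ± 0.17), Neo1 (-0.38 ± 0.12), Bmp1 (-0.56 ± 0.14), Skil (-1.10 ± 0.19), Smad7 (-1.07 ± 0.28), Smad9 (-0.65 ± 0.18) and Hey1 (-0.61 ± 0.18) were among the lower ones, with Hes5 (-2.95 ± 0.63), Hes1 (-1.97 ± 0.34) and Olig1 (-1.11 ± 0.36).

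Across the 18 libraries, the likeness of the members' log2 CPM is given as Pearson's r without a test, since libraries of a condition are alike. Id1 and Bmpr1a had r = 0.92, Id2 and Nog 0.90, and Nog and Bmpr1a 0.90. Smad6 went with Id1 (r = 0.86) and Id4 (0.84), while Id3 and Id4 had r = -0.05. Bmp7 ran against Id1 (r = -0.88), Bmpr1a (-0.82) and Smad6 (-0.80). Among 11848 genes with a mean of at least 5 CPM, those most like Nog were Pax6 (r = 0.96), Gm5577 (0.96) and Cxxc5 (0.94), and those most like Smad6 were Cotl1 (0.97), Cmya5 (0.96) and Tbc1d2b (0.96). Id1 was most like Cavin2, Zic5 and Kif26b (each 0.95), Id2 like Mtfr1l (0.93) and Fam19a5 (0.92), Id3 most like Lrrc1 (0.95), Amdhd2 (0.94) and Plxnc1 (0.93), and Id4 most like Art3, Arvcf and Dhx32 (each 0.96). For the receptors these were Pdlim5, Robo2 and Akap6 with Bmpr1a (0.95, 0.95 and 0.94) and Pde1c, Osgin2 and Agt with Bmpr1b (0.93, 0.89 and 0.88). Bmp7 was most like Tars2 (0.94), Polr1b (0.94) and Polr3e (0.93). The matches of Bmp4 (at most 0.87) rest on counts of 15 or fewer and are not described.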

How the data were processed

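Total RNA was depleted of ribosomal RNA and sequenced in pairs from stranded libraries. The authors deposited raw counts per gene without normalization, and per the submitters' notes they used FastQC, Trim Galore, STAR, SAMtools and featureCounts on mm10. Versions and the counting strand are not given in the sources used here. The labels give RNA quality numbers from 3.4 to 10 as a range and not per library. Of 54838 identifiers, 54809 matched GENCODE M21 on GRCm38, the source of names, positions and exon lengths. Groups came from the sample titles. The column of the third 72 h library carries another replicate number and was assigned by condition only. All replicate pairs differed beyond counting noise (4.08 to 62.7 as chi-square over its degrees of freedom), and counting error is the smallest error these depths allow.

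edgeR 4.0.16 (limma 3.58.1, R 4.3.3) applied TMM factors, its filter by condition and the quasi-likelihood test over all 18 libraries (biological coefficient of variation 0.18), with Benjamini-Hochberg adjustment over 20067 genes and a threshold of 0.05. Fold changes are log2 and SE is the fold change over the root of F. The likeness of genes used log2 CPM with a prior count of 2. The fit was tested on simulated data. Tables and figures used Python 3.11.15, numpy 2.4.6, pandas 2.3.3 and matplotlib 3.10.9. Pairing by replicate number was taken to hold where at least 3 pairs were numbered and every pair's deviations correlated above 0.1, which was so for 72 h TNF against 24 h TNF (0.29, 0.26 and 0.27); the numbers come from the labels.

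The text names all 10 members, on each pathway list the 3 called genes with the largest change and a mean of at least 1 CPM in the comparisons at 24 h against NSPs, 72 h against 24 h and those with TNF, markers where their list is given, and the 3 genes most like each member, except those of Bmp4 and 1 gene that is not reported here. The members, although picked by name, and the lists were chosen with earlier results of these data known. Alternatives were DESeq2 1.42.0, RLE factors, other filters, only the groups compared, the replicate block and leaving out each library.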

Additional observations from a re-analysis of the deposited data

Results flagged for a closer look

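No member had a TNF effect that differed between times by the interaction test. Among the pathway genes, the antagonist Chrdl1 drew attention because TNF went with a higher level at 24 h (8.19 ± 0.56 CPM without, 15 ± 1.1 CPM with TNF, SD, n = 3) and with a lower one at 72 h (88.9 ± 12.7 and 46.4 ± 7.7 CPM). The difference between the log2 effects was -1.81 ± 0.20 (edgeR adjusted p = 0.000255). For the antagonist Sostdc1 the levels were 0.709 ± 0.13 and 1.45 ± 0.61 CPM at 24 h and 5.37 ± 1.4 and 2.03 ± 0.92 CPM at 72 h, with a difference of -2.43 ± 0.53 (edgeR adjusted p = 0.0462), and its effect at 24 h alone was not called. That p lies close to the threshold. Under several alternatives fewer pathway genes were called in this test, and under others more, as given below. Groups of 3 libraries are too small for a test of single outlying libraries.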

How the results depend on the processing

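Of 2331 values for single members under the alternatives, 2263 kept their direction or lack of a call, 33 lost a call, 35 gained one and 0 reversed. The calls of Id1, Id2, Id3, Id4, Bmp7, Bmpr1a, Smad6 and Nog at 24 h against NSPs held under all 26 alternatives. Counts below are genes called in either direction, and the cause of each change was not tested. For 1 week against 72 h, 3 members, 7 pathway genes and 1331 of all genes were called. These were 6, 11 and 2032 without a filter on low counts, 6 and 15 (members and pathway) with only the groups compared, and 617 of all genes in the replicate block with 72 h replicate 3 unpaired (added after seeing the data). Leaving out 1 library gave 2 to 7, 6 to 11 and 626 to 1816. For TNF at 24 h, 0 members, 4 pathway genes and 703 genes became 1 member and 7 pathway genes with DESeq2, 2 members and 1374 genes without a filter, 1 member with only the groups compared and 1 with the replicate block (Id4, adjusted p = 0.0432 by edgeR), and 0 to 1 members and 363 to 936 genes with 1 library left out. For TNF at 72 h, 1 member, 14 pathway genes and 1919 genes became 2 members with DESeq2, 3 without a filter, 2 with the replicate block (Id2 added, adjusted p = 0.0479 by edgeR), 8 pathway genes and 986 genes in the unpaired block, and 1 to 2, 9 to 15 and 982 to 2849 with 1 library left out. In the unpaired block neither Id4 at 24 h nor Id2 at 72 h was called for TNF. From 24 h to 72 h with TNF, 6 members, 19 pathway genes and 2670 genes became 3, 6 and 872 with only the groups compared, 11 pathway genes with at least 10 counts in every library, and 10 to 21 pathway genes and 1237 to 3793 genes with 1 library left out. From 24 h to 72 h without TNF, 8 members and 4970 genes became 5 and 3286 in the unpaired block. For the difference of TNF effects, 2 pathway genes and 92 genes became 4 and 246 with DESeq2, 7 and 554 without a filter, 1 and 56 with at least 10 counts, 1 and 40 with only the groups compared, 1 pathway gene with the replicate block, 1 and 24 in the unpaired block, and 1 to 4 and 25 to 159 with 1 library left out. Apart from 72 h TNF against 24 h TNF, no comparison with 3 numbered pairs had every correlation above 0.1, and 72 h against NSPs had only 2 such pairs (0.22 and 0.15). Depth limits Bmp4, with at most 15 counts.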
